A study of Mus musculus with 9 samples.

Results

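Inguinal white adipose tissue (iWAT), the subcutaneous fat pad of the mouse in which beige adipocytes form, was compared between Tet1 KO mice held at room temperature (RT) and floxed WT mice exposed to cold, to see how much of the gene expression of cold-exposed tissue was found in KO tissue without cold. The comparison took 5 of the 9 RNA-seq libraries of the series, grouped by the column names of the count table: 2 labelled KO RT (mice 1786 and 1814) and 3 labelled WT cold (mice 1773, 1783 and 1812). All mice were C57BL/6 on chow. The KO mice were made in the study with Fabp4-Cre, a driver that is also active outside adipocytes, macrophages included. The WT mice carried floxed Tet1 alleles as controls. By the study's account, Tet1 mRNA was strongly reduced in adipocytes purified from KO fat. In the remaining cells of the fat, macrophages and precursors among them, it saw no loss of Tet1 that reached significance. Cold meant 4 °C for 4 hours. The other 4 libraries were 2 labelled WT RT (mice 1788 and 1810) and 2 labelled KO cold (mice 1781 and 1782), and were used to place the values. Genotype and housing change together between KO RT and WT cold, so a difference between these groups cannot be told apart as an effect of either. Each library is 1 mouse, and the design text speaks of 3 mice in each group where the labels give 2, 2, 3 and 2. The labels describe flash-frozen iWAT, while the study's design text and methods speak of fractionated inguinal adipocytes, and the time of day at which tissue was taken is not given in the sources used here.

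Cold acts on adipose tissue through noradrenaline, which binds β-adrenergic receptors and raises cAMP in adipocytes; cAMP frees fatty acids, induces thermogenic genes such as Ucp1, the mitochondrial uncoupling protein, and in time lowers the receptor's own transcript. TET1 is a DNA demethylase, an enzyme that oxidises methylated cytosine. Beyond thermogenesis, a few hours in the cold is known to alter glucose and lipid handling, stress hormone targets and clock genes of fat tissue.

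Several facts about the libraries touch every result. Mouse 1786 is named RT in the count table and cold in its sample title, and mouse 1781 is named cold in the table and RT in its title. The table's names were followed here, and the main counts were repeated under the titles' grouping and without both mice. The study's own KO against WT fold changes at RT, such as those of Ucp1 and Agtr1a, are close to those found here under the table's names. That does not show which label is right. Median log2 levels over WT RT can be set beside the labels. For the 33 genes called higher in WT cold than WT RT, mouse 1781 was at 1.55 and mouse 1786 at 0.30. The WT cold libraries held 1.30 to 1.66. For the 29 genes called lower, the values were -0.86 and -0.05, beside -0.99 in the middle library of WT cold. The titles' grouping moves no WT library, yet calls between WT cold and WT RT fell from 62 to 0. Without both mice they were 113. The labels themselves were not tested. Of 100 called genes looked at, 7 were also called with the titles' grouping and 20 without both mice, so that most single genes below lose their call there. Total counts ran from 47605902 to 56292251 per library, and 16745 of 24539 genes passed the filter on low counts. Tet1, the targeted gene (chr10:62804570-62908996, minus strand), was not lower in the libraries labelled KO RT, at 12.3 and 5.91 CPM (read counts scaled to library size), than in WT cold, at 5.33, 3.87 and 3.98 CPM. Both libraries labelled KO RT lay above all 3 of WT cold, with a log2 difference of 1.05 (SE 0.36, edgeR adjusted p = 0.143), and those labelled KO cold held 10.2 and 5.30 CPM against 4.51 and 4.01 CPM in WT RT. Counts for Tet1 are of the gene as a whole, and which exons were deleted is not stated in the sources used, so they do not tell the genotypes apart; the groups are therefore named as labelled. Adipocyte genes were abundant in every library, with the 12 markers of white adipocytes summing to between 13668 and 32193 CPM. Fewer cells of a type and less RNA per cell cannot be told apart in such bulk samples.

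KO RT and WT cold differed in 296 of the 16745 genes tested (1.77%), of which 170 (1.02%) were higher and 126 (0.752%) were lower in the libraries labelled KO RT. The call used edgeR's quasi-likelihood test with a Benjamini-Hochberg adjusted p under 0.05 and a fold above 1.5, the cutoffs of the study, and all adjusted p values below come from it. The same call gave 62 genes (0.370%) between WT cold and WT RT and 6 (0.0358%), all higher, between KO RT and WT RT. The study reported more genes in both directions for KO against WT at RT, with edgeR at these cutoffs. Which edgeR test it used is not stated, and the likelihood ratio test called 109 genes here. The 170 higher genes had a median log2 difference of 1.06, and a median of -0.67 for WT cold over WT RT and of 0.32 for KO RT over WT RT. The 126 lower genes had medians of -0.85, 0.63 and -0.28 in the same order. At the other end, 6681 genes (39.9%) had a 95% interval of the KO RT to WT cold difference that lay wholly within 1.5-fold. The calls rested on few libraries. With the titles' grouping 9 genes were called higher and 1 lower, and without mice 1781 and 1786 the counts were 29 and 5. Without mouse 1786 alone they were 28 and 1, without 1814 they were 42 and 34, and leaving out WT cold mouse 1773, 1783 or 1812 left 23, 9 or 26 higher and 5, 6 or 12 lower. Leaving out WT RT mouse 1788 or 1810 also lowered the number of calls, and the 296 genes had a median log2 size of 0.97 each time. Both mice are in neither group compared, and enter through the filter on low counts, the scaling of libraries and the shared estimate of spread. All 296 genes kept their direction in every one of these fits, with a median size of 0.55 on the log2 scale under the titles' grouping and of 0.96 without both mice.

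Housing and genotype can be set apart in part by the opposite pair of groups, KO cold against WT RT, which shares no library with KO RT against WT cold. A gene that follows housing has opposite signs in these 2 comparisons, and a gene that follows the labelled genotype has the same sign. KO cold against WT RT gave 156 called genes (0.932%), 97 higher (0.579%) and 59 lower (0.352%). Of these, 67 were also called between KO RT and WT cold, which is 22.6% of the 296 and 42.9% of the 156. In 54 of the 67 the signs were opposite, 29 of them higher and 25 lower in KO RT than in WT cold, and in 13 they were the same, each time higher in the libraries labelled KO. Counting signs alone, 130 of the 170 higher genes (76.5%) and 112 of the 126 lower genes (88.9%) had the opposite sign in KO cold against WT RT, beside 58.0% of all genes tested. The 54 became 0 with the titles' grouping and 9 without mice 1781 and 1786, and the 13 became 6 and 10. Without WT RT mouse 1810 only 3 of opposite and 1 of the same sign were left.

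**Figure D1:**
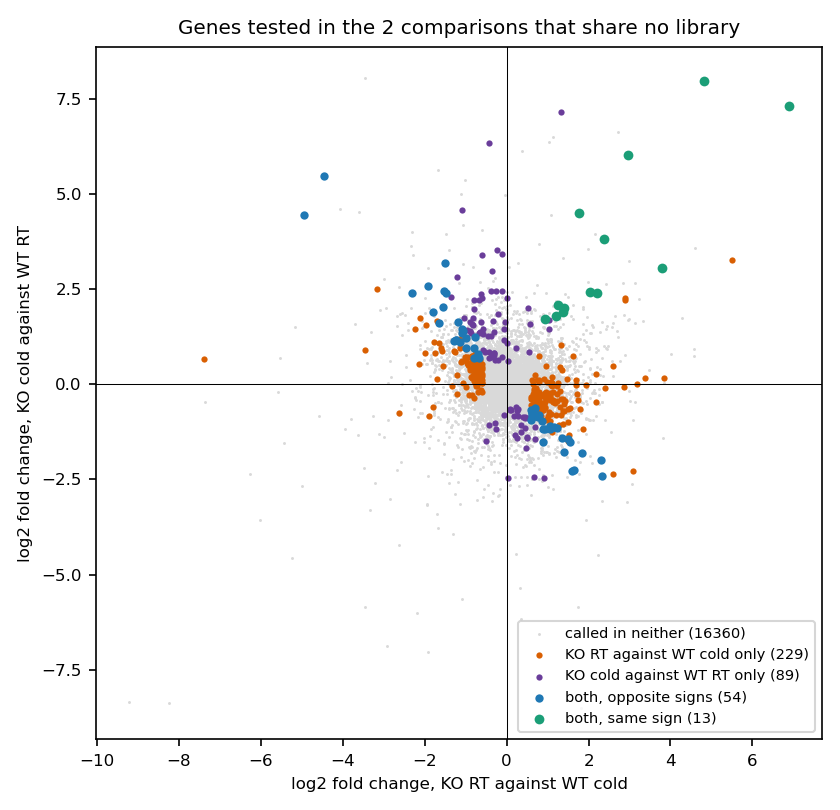
Log2 fold change of each gene tested between KO RT and WT cold (x axis) and between KO cold and WT RT (y axis), 1 point per gene, coloured by where it was called. The 54 genes called in both with opposite signs lie in the upper left and lower right, and the 13 with the same sign lie in the upper right.

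The gene with the lowest p between KO RT and WT cold was Adrb3 (chr8:27225776-27250616, minus strand), which encodes the β3-adrenergic receptor of adipocytes. It stood at 386 and 434 CPM in KO RT and at 83.5, 95.3 and 65.8 CPM in WT cold, with no overlap. WT RT held 372 and 382 CPM and KO cold 69.9 and 71.1 CPM, so that the 4 libraries labelled RT and the 5 labelled cold formed separate ranges whatever the genotype. The log2 difference between KO RT and WT cold was 2.33 (SE 0.15, adjusted p = 0.00289), and that between KO cold and WT RT was -2.42 (SE 0.18, adjusted p = 0.00234). It was called whichever single library was left out, and without both mice (2.42, adjusted p = 0.0102), but not under the titles' grouping (1.63, adjusted p = 0.796).

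Of 20 genes of cAMP signalling and its feedback, 3 (15%) were called between KO RT and WT cold, beside 1.77% of all genes. All 3 were higher in KO RT, and the list's median log2 difference was 0.19 beside -0.0026 over all genes. Besides Adrb3 these were Rgs2, a regulator that shortens G protein signals, and Pde4a, a phosphodiesterase that degrades cAMP. Rgs2 was at 136 and 134 CPM in KO RT against 74.6, 61.3 and 57.7 CPM in WT cold (log2 1.06, SE 0.16, adjusted p = 0.0276), and WT RT was higher still at 167 and 165 CPM. Pde4a was at 20.8 and 16.5 CPM against 11.7, 12.5 and 11.0 CPM (log2 0.66, SE 0.13, adjusted p = 0.0441), beside 18.0 and 17.2 CPM in WT RT. For neither gene did the libraries labelled KO RT overlap those of WT cold. Adrb1, which encodes the β1-adrenergic receptor, and Crem and Sik1, transcripts known to be induced by cAMP, missed the threshold, with log2 differences of 0.54, 0.46 and 0.36. Of 26 immediate early genes, which answer within minutes to many signals, 0 were called by edgeR (3 higher by DESeq2, and 7 higher at an unadjusted p under 0.05), and their median was 0.26.

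**Figure D2:**
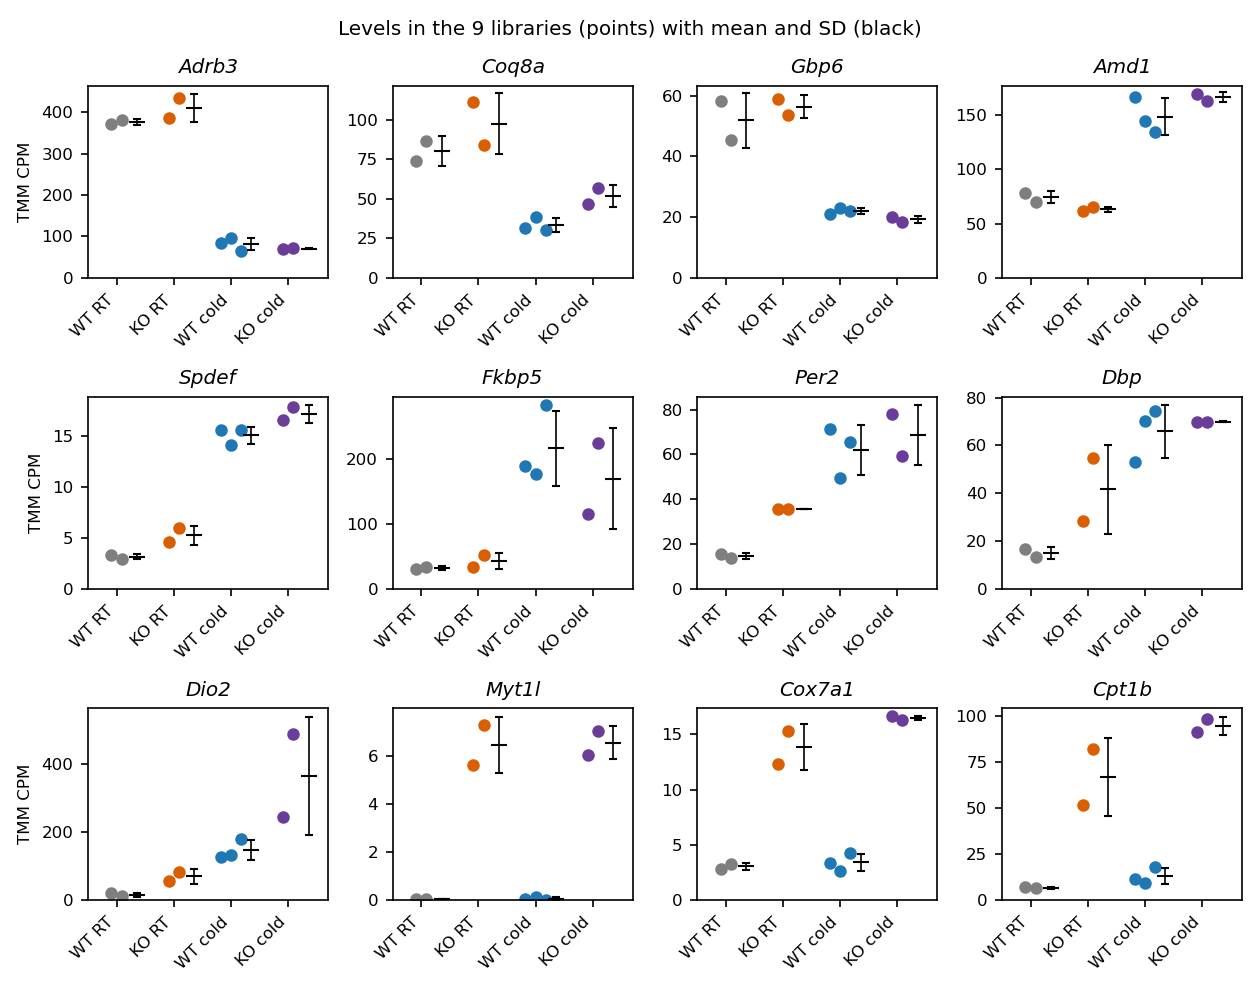
TMM-normalised CPM of 12 genes (y axis, from 0) in the 9 libraries by group, with 1 point per mouse and the group mean and SD in black. Adrb3, Coq8a and Gbp6 are higher and Amd1, Spdef and Fkbp5 lower in the libraries labelled RT than in those labelled cold. Per2 and Dio2 have KO RT between WT RT and WT cold, while for Dbp KO RT overlaps WT cold. Myt1l, Cox7a1 and Cpt1b are higher in both groups labelled KO than in both WT groups.

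Other genes also had KO RT next to WT RT. Coq8a, a mitochondrial kinase-like protein needed for coenzyme Q synthesis, was at 111 and 83.7 CPM in KO RT and at 31.7, 38.5 and 30.3 CPM in WT cold (log2 1.54, SE 0.16, adjusted p = 0.0138). WT RT, at 73.7 and 86.8 CPM, lay near KO RT and apart from WT cold; Coq8a overlaps Cdc42bpa on the opposite strand. Amd1, S-adenosylmethionine decarboxylase of polyamine synthesis (chr10:40287458-40302186), was at 61.4 and 64.9 CPM in KO RT and at 167, 144 and 134 CPM in WT cold. Its log2 difference was -1.23 (SE 0.12, adjusted p = 0.0113), and WT RT held 78.1 and 70.2 CPM. The call was lost without mouse 1786 (adjusted p = 0.0552), without both mice (0.0578) and under the titles' grouping (-0.34, adjusted p = 0.888). The near-identical Amd2 carried the same counts in every library and is not a separate result. Amd1 and Amd2 were the members called (18.2% with both counted, beside 1.77% of all genes) of 11 polyamine genes, whose median was -0.05. Mthfd1l, a mitochondrial enzyme of folate metabolism, was at 3.35 and 3.21 CPM in KO RT and at 10.1, 9.96 and 10.1 CPM in WT cold (log2 -1.61, SE 0.19, adjusted p = 0.0195), and Vgll4, a partner of TEAD transcription factors, at 55.8 and 52.5 against 33.0, 28.0 and 32.2 CPM (log2 0.80, SE 0.10, adjusted p = 0.0195). In both, KO RT lay with WT RT (4.79 and 3.66 CPM for Mthfd1l, 54.7 and 51.3 CPM for Vgll4) and did not overlap WT cold.

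Fkbp5, a chaperone partner of the glucocorticoid receptor whose transcript is induced by glucocorticoids, was much lower in KO RT. It was at 34.4 and 52.2 CPM in KO RT and at 189, 177 and 283 CPM in WT cold (log2 -2.32, SE 0.34, adjusted p = 0.0276), while WT RT held 30.3 and 34.1 CPM and KO cold 115 and 225 CPM. The RT and cold libraries did not overlap, but the call was lost without both mice (-2.05, adjusted p = 0.0722), under the titles' grouping (-1.37, adjusted p = 0.812) and without any 1 of the 5 libraries compared. Pdk4, which encodes a kinase that restrains pyruvate oxidation and is also a glucocorticoid target, went the other way, with 468 and 526 CPM against 212, 203 and 273 CPM (log2 1.11, SE 0.20, adjusted p = 0.0377). These were the 2 called (14.3%, beside 1.77% of all genes) of 14 glucocorticoid and stress hormone targets. The list's median was -0.11, with 7 positive and 7 negative. DESeq2 and the likelihood ratio test each called 1 higher and 4 lower, as many as had an unadjusted edgeR p under 0.05. Spdef, an ETS transcription factor best known from secretory epithelia, was at 4.58 and 5.91 CPM in KO RT and at 15.6, 14.1 and 15.5 CPM in WT cold (log2 -1.52, SE 0.16, adjusted p = 0.0113). It was 3.30 and 2.95 CPM in WT RT, so KO RT sat between the WT groups and nearer to RT. Spdef was called whichever single library was left out, but not without both mice (-1.34, adjusted p = 0.0607) or under the titles' grouping (-0.42, adjusted p = 0.885). Doc2b, a calcium sensor of vesicle release, and Vipr1, a receptor for vasoactive intestinal peptide, had the same order, with log2 differences of -1.49 (SE 0.18, adjusted p = 0.0195) and -1.56 (SE 0.19, adjusted p = 0.0195). Doc2b overlaps the gene model Gm12339.

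The cold state of WT tissue was set by WT cold against WT RT, and KO RT was then placed between these groups gene by gene, on a log2 scale where 0 is the WT RT mean and 1 the WT cold mean. The WT libraries that chose these 62 genes also set the scale, so the positions are a description. For the 33 genes higher in cold, the median position was 0.20 in mouse 1786 and 0.26 in mouse 1814. In 20 of the 33 both libraries labelled KO RT lay between the ranges of the WT groups, in 6 both were at or short of the WT RT range, in 6 they were mixed, and in 1, Ucp1, both were at or past the WT cold range. For the 29 genes lower in cold the medians were 0.02 and 0.19, with 12 genes between, 10 at the RT range, 7 mixed and 0 at the cold range. As a level, the 33 genes had a median log2 over WT RT of 0.30 and 0.32 in the libraries labelled KO RT, 1.30 to 1.66 in those of WT cold and 1.40 and 1.55 in those labelled KO cold. For the 29 genes the same medians were -0.05 and -0.16, then -0.99 in the middle library of WT cold, and -0.86 and -0.87.

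**Figure D3:**
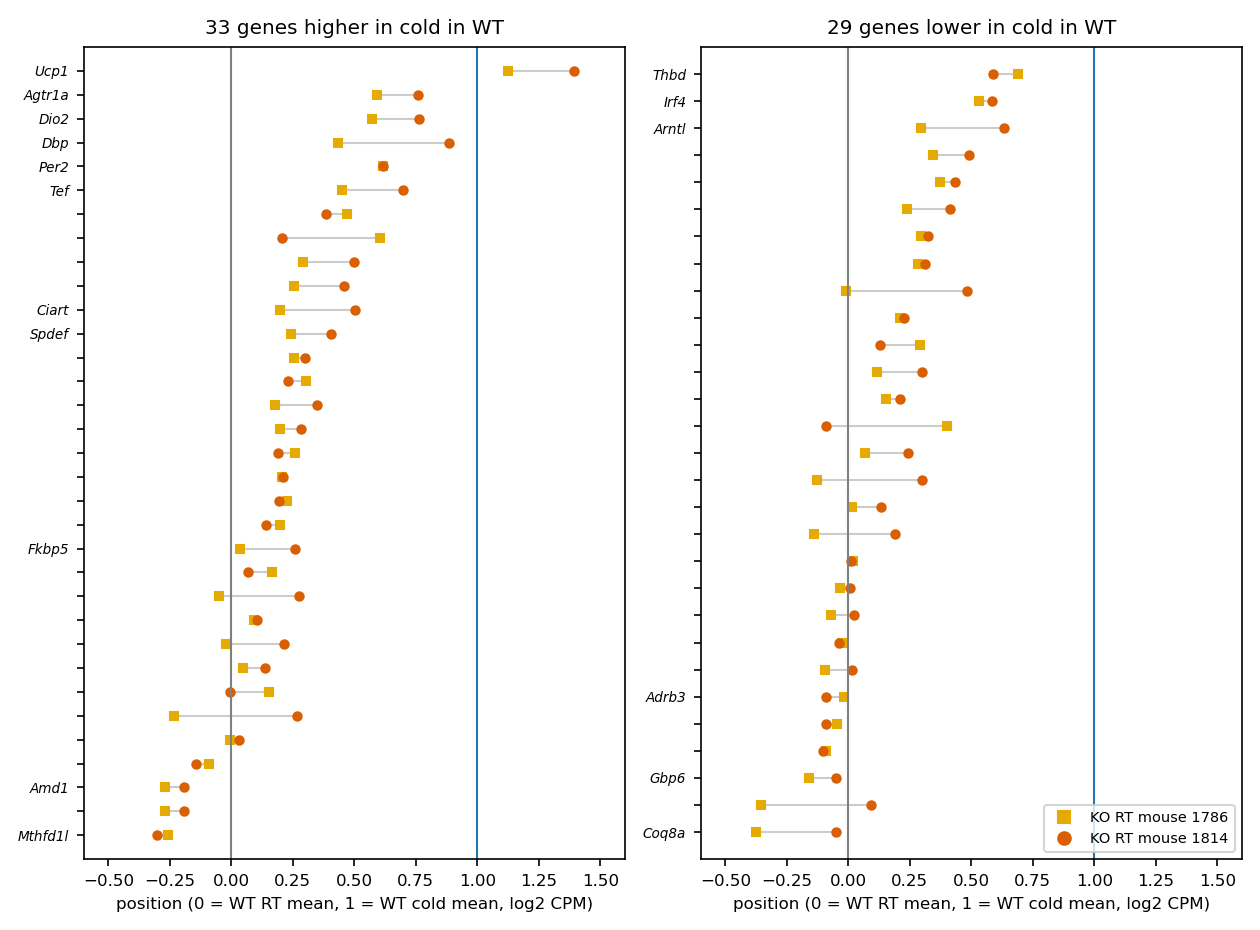
Position of the 2 libraries labelled KO RT (x axis; 0 is the WT RT mean and 1 the WT cold mean of log2 CPM) for the 33 genes higher and the 29 genes lower in WT cold than in WT RT, 1 row per gene, with names for some of the genes described. Most points lie nearer 0 than 1; Ucp1 lies past 1 in both mice, and Adrb3, Gbp6, Coq8a, Amd1 and Mthfd1l lie at or below 0.

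A few genes of the WT cold state stood out as partly present in KO RT. After Ucp1 (positions 1.13 and 1.39) came Agtr1a, the angiotensin II receptor, at 0.59 and 0.76, and Dio2, the deiodinase that makes active thyroid hormone, at 0.57 and 0.76. The next were the clock genes Dbp (0.43 and 0.88), Per2 (0.61 and 0.62) and Tef (0.45 and 0.70). Among the genes lower in cold, the furthest were Thbd, the endothelial thrombin receptor thrombomodulin (0.69 and 0.59), Irf4, a transcription factor of adipocytes and immune cells (0.53 and 0.58), and the clock gene Arntl (0.30 and 0.63). Apart from the thermogenic genes, Agtr1a was at 78.9 and 96.5 CPM in KO RT, between 40.0 and 36.5 CPM in WT RT and 115, 110 and 173 CPM in WT cold. Irf4 was at 144 and 133 CPM, between 266 and 362 CPM in WT RT and 87.4, 68.5 and 64.6 CPM in WT cold. For both genes the 3 ranges did not overlap, but neither comparison of KO RT with a WT group passed the threshold. Against WT cold, Agtr1a had a log2 difference of -0.60 (95% interval -1.11 to -0.09, adjusted p = 0.170) and Irf4 of 0.91 (SE 0.27, adjusted p = 0.108). Against WT RT the adjusted p values were 0.388 for Agtr1a and 0.521 for Irf4, whereas the study listed both as changed in KO at RT.

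Clock genes were thus among those for which KO RT lay furthest toward the cold level. The core clock is a feedback loop in which ARNTL and CLOCK bind E-boxes, drive their repressors such as the PER and CRY proteins and CIART, and drive output factors such as DBP and TEF. Of 19 core clock genes, 2 (10.5%, beside 1.77% of all genes) were called between KO RT and WT cold. They were 1 in each direction, with Ciart lower, and the list's median log2 difference was -0.02. Between KO cold and WT RT, 7 were called higher and 1 lower, beside 0.579% and 0.352% of all genes, with a median of 0.50. As a level over WT RT, the list's median was 0.46 and 0.28 in KO RT, 0.28, 0.33 and 0.45 in WT cold and 0.41 and 0.66 in KO cold, so the groups other than WT RT overlapped. Per2 was at 35.5 and 35.6 CPM in KO RT, with 15.7 and 13.8 CPM in WT RT and 71.1, 49.6 and 65.6 CPM in WT cold. The 2 libraries labelled KO RT lay above both of WT RT and below all of WT cold, though the difference from WT cold, -0.81 (SE 0.18), had an adjusted p of 0.0581 and that from WT RT, 1.27 (SE 0.19), of 0.195. Dbp was at 28.3 and 54.8 CPM in KO RT, 16.7 and 13.2 CPM in WT RT and 53.2, 70.0 and 74.3 CPM in WT cold. Its KO RT range overlapped WT cold, and its log2 difference from WT cold was -0.66 (SE 0.26, adjusted p = 0.192). Per3, a repressor of the same family, had KO RT at the upper end of WT cold, with 33.2 and 29.1 CPM against 29.1, 23.6 and 26.9 CPM, and WT RT below at 17.6 and 14.6 CPM. The study listed Per2, Per3, Dbp and Tef as higher in KO than in WT at RT.

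Ciart, a repressor of the clock, was lower in KO RT than in WT cold. Ciart (chr3:95878503-95882251, minus strand) was at 1.39 and 2.31 CPM in KO RT, 4.88, 6.05 and 4.82 CPM in WT cold, 1.18 and 0.846 CPM in WT RT and 7.44 and 11.0 CPM in KO cold (log2 -1.51, SE 0.30, adjusted p = 0.0472). The RT and cold libraries did not overlap; Ciart shares its locus with C920021L13Rik on the opposite strand. Arntl was at 23.4 and 18.2 CPM in KO RT and at 13.7, 13.0 and 14.9 CPM in WT cold, without a call (log2 0.59, SE 0.16, adjusted p = 0.0900). Ciart lost its call without mouse 1786 (adjusted p = 0.281) and was at -0.11 under the titles' grouping.

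The sequences below show where the E-box, CACGTG, lies upstream of 5 clock genes, Ciart among them, whose difference between KO RT and WT cold was the largest in size of the list. They are RefSeq promoters of build GRCm38.p6, read 5′ to 3′ on the gene's strand, with the E-box in capitals. Ciart holds 3 E-boxes, starting 116, 58 and 44 bases before its start site, and the other 4 windows hold 1 each.
Ciart (chr3:95882252-95882359, minus strand): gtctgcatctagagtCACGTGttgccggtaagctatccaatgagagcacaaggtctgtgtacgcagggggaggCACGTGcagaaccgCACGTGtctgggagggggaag
Per1 (chr11:69098753-69098818, plus strand): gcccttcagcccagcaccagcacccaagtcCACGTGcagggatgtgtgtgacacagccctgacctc
Tef (chr15:81802516-81802581, plus strand): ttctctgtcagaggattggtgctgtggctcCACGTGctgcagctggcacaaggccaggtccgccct
Cry1 (chr10:85185079-85185144, minus strand): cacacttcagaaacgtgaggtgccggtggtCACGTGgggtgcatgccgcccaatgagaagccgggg
Bhlhe41 (chr6:145865538-145865603, minus strand): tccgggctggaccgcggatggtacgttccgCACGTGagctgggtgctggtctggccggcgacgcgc
Promoters of 300 bases were found for 16 of the 19 clock genes, and 6 of their 21 promoters (28.6%) held CACGTG, which reads the same on both strands, beside 9.15% of the promoters of all genes tested and 7.15% of all 32851 promoters. This motif was chosen after the values had been seen, and a match is a description of letters only. Of the genes shown, Per1, Cry1 and Bhlhe41 had log2 differences of 0.17, -0.16 and -0.04 between KO RT and WT cold and Tef had -0.63, none of them called.

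The thermogenic genes serve here as the comparison list for what follows. Of 20, 8 were called higher (40%) and 0 lower in KO RT than in WT cold, beside 1.02% and 0.752% of all genes. The median log2 difference was 1.12, and against WT RT the median was 1.61 for KO RT and 0.15 for WT cold. Many members, all 8 called ones included, are among the genes the study listed as higher in KO at both temperatures from these libraries. The list's counts and medians are therefore a description and not independent support. Several groups of metabolic genes had positive medians as well. All 16 genes of de novo lipogenesis, the making of fatty acids from glucose carbon, were higher in KO RT than in WT cold by their fitted difference, with a median of 1.35, and 2 (12.5%), Elovl6 and Fads2, were called. DESeq2 and the likelihood ratio test each called 11 of the 16, and 14 had an unadjusted p under 0.05. Elovl6, which elongates palmitate, was at 713 and 1281 CPM in KO RT and at 116, 249 and 292 CPM in WT cold (log2 2.18, SE 0.42, adjusted p = 0.0443). Fads2, a desaturase, was at 63.8 and 44.5 CPM against 22.7, 27.7 and 25.3 CPM (log2 1.10, SE 0.20, adjusted p = 0.0377). Neither gene's groups overlapped. WT RT stood at 508 and 1007 CPM for Elovl6, overlapping KO RT, and at 31.4 and 39.0 CPM for Fads2, below it. Acly, which makes cytosolic acetyl-CoA, and Fasn, the fatty acid synthase, had log2 differences of 2.25 (SE 0.58, adjusted p = 0.0840) and 1.58 (SE 0.40, adjusted p = 0.0833). Over WT RT, the median of the 16 genes was 0.48 in KO RT and -0.78 in WT cold. By library it was 0.11 (mouse 1786) and 0.79 (mouse 1814) in KO RT and -1.52 to -0.47 in WT cold. The WT RT libraries were at -0.38 and 0.38, so mouse 1786 lay within their range. Elovl6 lost its call without each single library, with adjusted p values up to 0.133 and log2 differences from 1.70 to 2.55. The list's median was 1.06 under the titles' grouping and 1.61 without mice 1781 and 1786.

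Glycogen genes had the same direction, with 16 of 17 positive and a median of 0.41. In this list 3 were called higher (17.6%, with 6 by DESeq2), beside 1.02% of all genes. Pygl, the liver-type glycogen phosphorylase, was at 320 and 522 CPM in KO RT and at 106, 184 and 165 CPM in WT cold (log2 1.47, SE 0.27, adjusted p = 0.0377). Ppp1r3b, which targets protein phosphatase to glycogen, was at 61.2 and 59.7 CPM in KO RT, 18.6, 24.2 and 26.0 CPM in WT cold, 15.6 and 19.6 CPM in WT RT and 62.1 and 79.5 CPM in KO cold. Its log2 difference was 1.40 (SE 0.17, adjusted p = 0.0195), the 4 libraries labelled KO lay above all 5 of WT, and it was also called against WT RT (1.78, SE 0.19, adjusted p = 0.0374). Under the titles' grouping it was called as well (1.41, adjusted p = 0.0466), but not without both mice (1.38, adjusted p = 0.0738), nor without KO RT mouse 1786 or 1814 or WT cold mouse 1783 (adjusted p up to 0.0977). Ppp1r3d, a related targeting subunit, was at 15.5 and 16.8 CPM in KO RT and between 5.62 and 10.2 CPM in the other 7 libraries (log2 0.96, SE 0.18, adjusted p = 0.0415). So Pygl in KO RT was nearest to WT RT, which held 243 and 309 CPM, while Ppp1r3b and Ppp1r3d were above both WT groups.

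Of 22 genes of glucose uptake and glycolysis, 18.2% were called, beside 1.77% of all genes. Pfkm and Pdk4 were higher and Hk1 and Slc2a1 lower, with a list median of 0.28. Slc2a1, the glucose transporter GLUT1, was at 61.1 and 54.5 CPM in KO RT and at 80.6, 86.6 and 95.6 CPM in WT cold (log2 -0.60, SE 0.11, adjusted p = 0.0405). Hk1, hexokinase 1, was at 62.3 and 65.1 against 99.5, 101 and 106 CPM (log2 -0.68, SE 0.10, adjusted p = 0.0276). For both, WT RT lay outside WT cold and next to KO RT, at 58.2 and 60.9 CPM for Slc2a1 and at 76.4 and 71.3 CPM for Hk1; Hk1 overlaps Hk1os. Pfkm, the muscle-type phosphofructokinase, was at 39.0 and 41.9 CPM against 25.02, 28.5 and 23.5 CPM (log2 0.66, SE 0.12, adjusted p = 0.0377). The insulin-regulated transporter Slc2a4 had a log2 difference of 0.57 (SE 0.23, adjusted p = 0.194). Outside the list, and picked after its values were seen, the fructose transporter Slc2a5 was at 19.8 and 66.2 CPM in KO RT and at 1.81, 4.93 and 5.68 CPM in WT cold (log2 3.38, SE 0.63, adjusted p = 0.0388).

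Lists of mitochondrial genes differed among themselves. All 24 genes of the tricarboxylic acid cycle and pyruvate oxidation had positive differences, with a median of 0.40, yet 0 were called by edgeR, 2 by DESeq2, and 7 had an unadjusted p under 0.05. In 3 of the 24 the interval lay inside 1.5-fold. Pcx, pyruvate carboxylase, had a log2 difference of 0.63. Fatty acid β-oxidation had a median of 0.31 over 20 genes, with 0 called by edgeR and 1 in each direction by DESeq2 (unadjusted, 3 higher and 1 lower), and 3 had intervals inside 1.5-fold. The 76 subunits of the respiratory chain had a median of 0.10 with 42 inside 1.5-fold, and the 78 mitochondrial ribosomal proteins a median of -0.05 with 62 inside 1.5-fold, 0 called by edgeR or DESeq2, and 4 lower at an unadjusted p under 0.05. The 2 called subunits (2.63%, beside 1.77% of all genes) were Cox7a1 and Cox8b, the tissue-specific forms that the thermogenic list also holds. For the respiratory chain and the mitochondrial ribosome, unlike the other 2 lists, a difference above 1.5-fold was excluded by the interval for more genes than not, beside 39.9% of all genes.

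**Figure D4:**
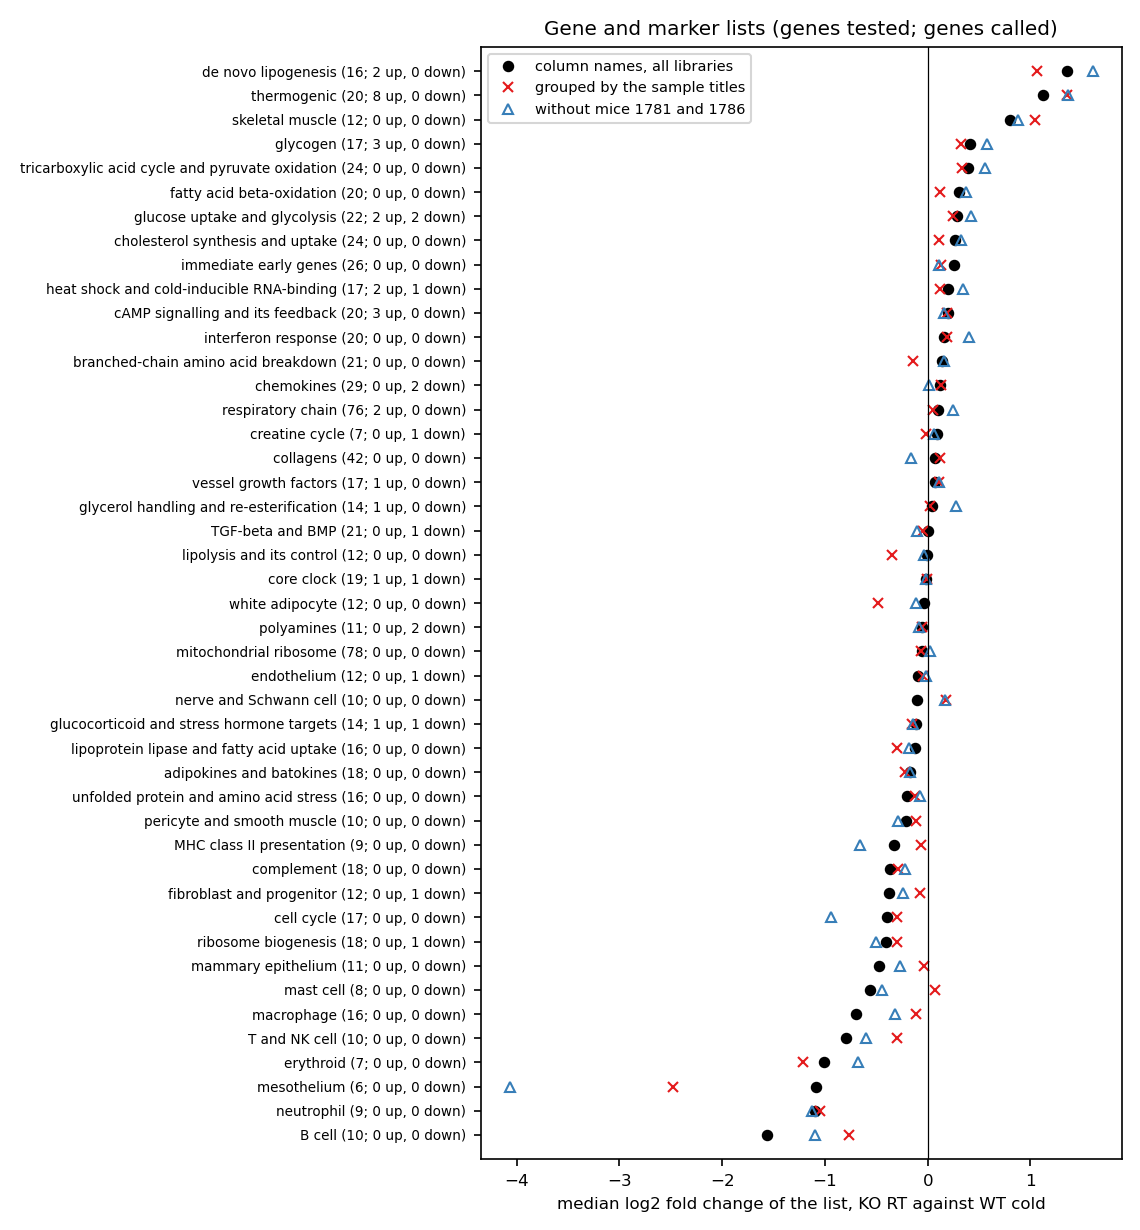
Median log2 fold change of 45 gene and marker lists between KO RT and WT cold (x axis), with the number of genes tested and called beside each name. Black points use the column names, red crosses the grouping by sample titles and blue triangles the libraries without mice 1781 and 1786; de novo lipogenesis, thermogenic and skeletal muscle lists are highest, and B cell, neutrophil, mesothelium and erythroid markers lowest.

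Of the 13 genes called in both comparisons with the same sign, 6 are on the thermogenic list, Cox7a1, Cpt1b, Fabp3, Slc27a2 and Pank1 among them, and 7 are not, such as Ppp1r3b, Phospho1, Myt1l and Cpn2. As the thermogenic list overlaps the KO genes reported by the study from these libraries, this share is a description only. Cox7a1, a subunit of cytochrome c oxidase (chr7:30184144-30186078), was at 12.4 and 15.3 CPM in KO RT and 16.6 and 16.3 CPM in KO cold, against 3.30, 2.66 and 4.21 CPM in WT cold and 2.83 and 3.25 CPM in WT RT. The libraries labelled KO did not overlap those of WT, and the difference from WT cold was 2.03 (SE 0.20, adjusted p = 0.0113). Cox7a1 was called whichever single library was left out, under the titles' grouping (2.24, adjusted p = 0.0176) and without both mice (2.18, adjusted p = 0.0373). Cpt1b, the muscle form of the enzyme by which fatty acids enter mitochondria, was at 51.9 and 81.9 CPM in KO RT against 11.5, 9.39 and 17.7 CPM in WT cold (log2 2.38, SE 0.27, adjusted p = 0.0187). Its locus lies within the readthrough gene model Gm44502, also called, and reads of the pair may be shared.

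Myt1l (chr12:29528384-29923213), a zinc finger factor known from neurons, was at or near 0 in WT tissue. It was at 5.63 and 7.27 CPM in KO RT, 6.06 and 7.04 CPM in KO cold, 0.0363, 0.117 and 0 CPM in WT cold and 0.0375 and 0.0393 CPM in WT RT. In reads, that was 692 and 664 in the groups labelled KO against 8 and 4 in the groups labelled WT, so all 4 libraries labelled KO lay far above all 5 of WT. Its fitted log2 difference of 6.89 (SE 0.55, adjusted p = 0.00800) leans on those few reads. The call held whichever single library was left out, under the titles' grouping (6.94, adjusted p = 0.00890) and without both mice (7.07, adjusted p = 0.0226). Atp7b, a copper transporter, was instead high in KO RT alone, at 4.72 and 7.98 CPM with 0.293 to 0.598 CPM in the other 7 libraries (log2 3.85, SE 0.41, adjusted p = 0.0147). Cpn2, a subunit of carboxypeptidase N, was at 2.67 and 2.86 CPM in KO RT against 0.145, 0.157 and 0.293 CPM in WT cold (log2 3.80, SE 0.46, adjusted p = 0.0195). For Atp7b the difference of KO RT from WT RT was 3.90 (SE 0.49, adjusted p = 0.0737).

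Genes of ribosome making had lower fitted levels in KO RT. All 18 genes of the ribosome biogenesis list had negative differences, with a median of -0.41. Nop56, a core protein of box C/D small nucleolar particles, was the gene called (5.56%, beside 1.77% of all genes). Nop56 was at 41.7 and 37.8 CPM in KO RT and at 64.9, 61.9 and 55.7 CPM in WT cold (log2 -0.61, SE 0.10, adjusted p = 0.0304), with WT RT at 42.2 and 45.4 CPM. KO RT did not overlap WT cold and lay just below WT RT. The Nop56 gene overlaps Idh3b on the opposite strand. As a level over WT RT, the list's median was -0.10 and -0.21 in KO RT, 0.36, 0.30 and 0.25 in WT cold and 0.15 and 0.28 in KO cold. Thus the RT and the cold libraries did not overlap. The median was -0.30 under the titles' grouping and -0.51 without both mice. Nhp2, a protein of box H/ACA particles, was at 21.5 and 22.9 CPM in KO RT and at 36.0, 38.3 and 33.5 CPM in WT cold (log2 -0.69, SE 0.10, adjusted p = 0.0276), while WT RT was at 32.1 and 29.995 CPM, so KO RT was below all other libraries. Mybbp1a, a nucleolar MYB-binding protein chosen after its values were seen, was at 110 and 97.2 CPM against 157, 159 and 154 CPM (log2 -0.60, SE 0.09, adjusted p = 0.0276).

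Gbp6 and Gbp11 were among the genes called higher in KO RT with the lowest p, while 0 of the interferon response list, its guanylate-binding genes Gbp2, Gbp3 and Gbp7 included, were called. Gbp6 (chr5:105270702-105293698, minus strand), of the guanylate-binding family that acts on vacuoles of intracellular pathogens, was at 59.0 and 53.7 CPM in KO RT and at 20.9, 23.0 and 22.1 CPM in WT cold (log2 1.36, SE 0.12, adjusted p = 0.0113). WT RT held 58.3 and 45.4 CPM and KO cold 20.2 and 18.5 CPM, and the RT and cold libraries did not overlap. Gbp6 was called whichever single library was left out and without both mice (1.29, adjusted p = 0.0388), but not under the titles' grouping (0.75, adjusted p = 0.821). Its neighbour Gbp11, annotated as a polymorphic pseudogene, was at 7.61 and 7.71 against 2.03, 1.35 and 1.30 CPM (log2 2.29, SE 0.23, adjusted p = 0.0113). Gbp10, the next gene of this cluster, was at 13.8 and 9.74 against 3.77, 4.62 and 2.83 CPM (log2 1.65, SE 0.31, adjusted p = 0.0411). These genes are alike in sequence, so reads may be split between them. Igtp, an immunity-related GTPase of another family, was at 58.6 and 63.8 CPM against 33.6, 30.4 and 32.2 CPM (log2 0.93, SE 0.19, adjusted p = 0.0466), and Cd274, the checkpoint ligand PD-L1, at 41.5 and 39.9 against 22.3, 18.3 and 17.1 CPM (log2 1.08, SE 0.19, adjusted p = 0.0359). Igtp overlaps Irgm2 on the same strand, so reads of that pair may be shared. Gbp10, Igtp and Cd274 were chosen after their values were seen. Of the 20 genes of the interferon response list, which also holds Isg15 and Ifit genes, 0 were called by edgeR and 2 higher by DESeq2 (2 higher at an unadjusted p under 0.05), the median was 0.16, and 15 were positive.

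The Igtp promoter is shown for the interferon-stimulated response element, GAAA, any 2 bases and GAAA again on either strand, in capitals, which starts 34 bases before the start site in this RefSeq window.
Igtp (chr11:58199492-58199555, plus strand): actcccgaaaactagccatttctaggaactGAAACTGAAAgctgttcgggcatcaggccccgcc
This motif, also chosen after the values had been seen, lay in 3 of 154 promoters of the genes higher in KO RT (1.95%), in 10 of 18 promoters of the interferon list (55.6%), in 3.22% of those of all genes tested and in 3.44% of all promoters. The cAMP response element, TGACGTCA, was searched because cold acts through cAMP. It lay in 1 of the 154 promoters of the higher genes (0.649%), in 2 of the 128 of the lower genes (1.56%), in 2.78% of the promoters of all genes tested and in 1.79% of all promoters. The 3 windows are printed so that the site can be seen, in capitals.
Hps4 (chr5:112342998-112343065, plus strand): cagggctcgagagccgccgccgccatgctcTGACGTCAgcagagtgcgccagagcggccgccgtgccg
Mif (chr10:75860278-75860331, minus strand): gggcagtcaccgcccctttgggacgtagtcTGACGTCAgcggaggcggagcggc
Trmt61a (chr12:111678055-111678104, plus strand): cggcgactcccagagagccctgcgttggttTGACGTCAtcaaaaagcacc
Hps4, a subunit of a complex for lysosome-related organelles, was higher in KO RT (log2 0.67, SE 0.13, adjusted p = 0.0460). Mif, a cytokine, and Trmt61a, which methylates transfer RNA, were lower, with log2 differences of -0.74 (SE 0.15, adjusted p = 0.0487) and -1.06 (SE 0.19, adjusted p = 0.0373). Promoters were found for 112 of the 170 higher and 97 of the 126 lower genes. The shorter TGACG, which is part of the full element, lay in 24.0% and 26.6% of their promoters, in 28.1% of those of all genes tested and in 20.8% of all promoters.

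Of 17 heat shock and cold-inducible genes, 15 had positive and 2 negative differences. Hsph1 and Hspa4l, chaperones of the HSP110 family, were called higher and Cirbp lower (17.6% of the list, beside 1.77% of all genes). The list's median was 0.20. Hsph1 was at 66.0 and 119 CPM in KO RT and at 40.6, 36.6 and 43.3 CPM in WT cold (log2 1.20, SE 0.23, adjusted p = 0.0411). Cirbp, an RNA-binding protein induced by mild cold, was at 23.3 and 19.7 CPM in KO RT, 39.3, 34.2 and 30.4 CPM in WT cold, 23.6 and 24.1 CPM in WT RT and 40.4 and 42.8 CPM in KO cold (log2 -0.69, SE 0.13, adjusted p = 0.0411). Cirbp therefore had RT and cold libraries without overlap, as did Rbm3, its relative, at 87.0 and 89.1 CPM against 123, 119 and 142 CPM, although Rbm3 missed the threshold (log2 -0.54, SE 0.12, adjusted p = 0.0566). Ucp2, a mitochondrial carrier related to Ucp1, was lower in KO RT at 243 and 240 CPM against 596, 582 and 427 CPM (log2 -1.15, SE 0.18, adjusted p = 0.0276), and Ucp3, another relative, was higher at 35.5 and 48.1 against 18.3, 22.9 and 23.1 CPM (log2 0.97, SE 0.18, adjusted p = 0.0377). Both were chosen after their values were seen, and Ucp2 in WT RT, at 297 and 238 CPM, overlapped KO RT.

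**Figure D5:**
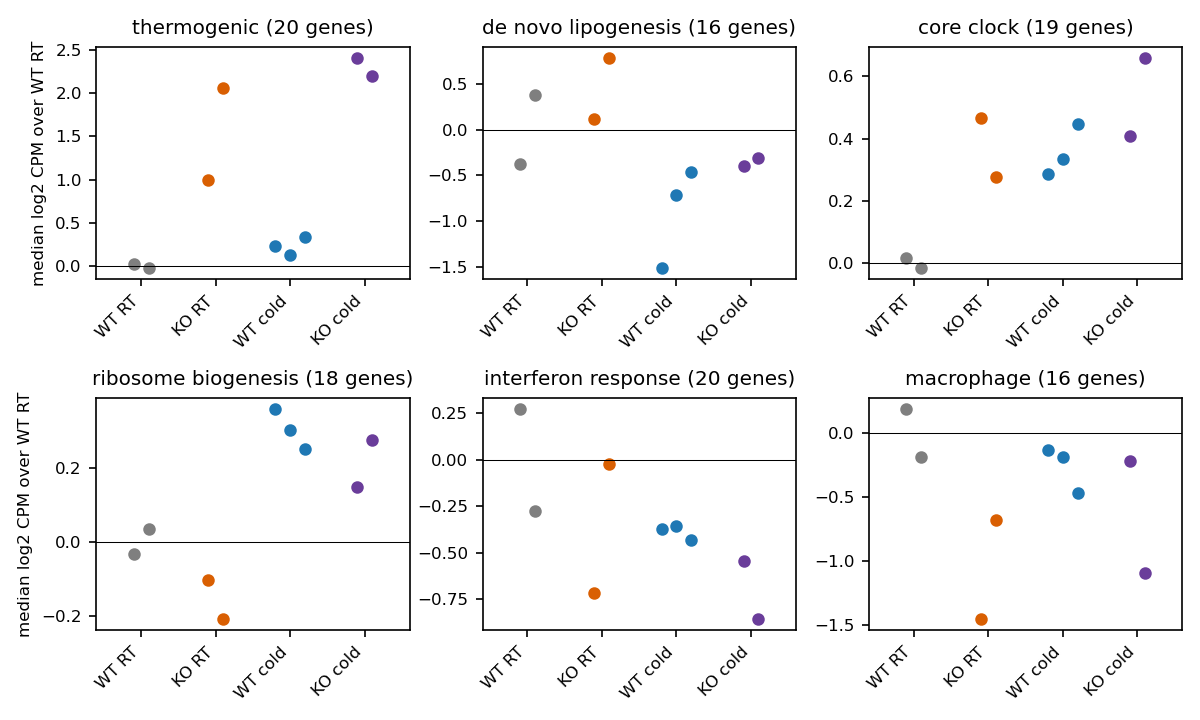
Median log2 CPM over the WT RT mean (y axis) of 6 gene lists in each of the 9 libraries, 1 point per mouse by group. For ribosome biogenesis the RT and cold libraries do not overlap. For the core clock KO RT mouse 1786 lies among the cold libraries and KO RT mouse 1814 just below them. For the macrophage list the 2 libraries labelled KO RT differ from each other by more than WT cold does.

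Of 29 chemokines, 2 (6.90%) were called, beside 1.77% of all genes: Ccl6 and Ccl9, which attract myeloid cells, were lower. Ccl6 was at 33.8 and 69.6 CPM in KO RT and at 167, 172 and 165 CPM in WT cold (log2 -1.70, SE 0.29, adjusted p = 0.0363), and Ccl9 at 28.8 and 40.2 against 91.9, 83.9 and 84.7 CPM (log2 -1.33, SE 0.20, adjusted p = 0.0276). KO RT was below all WT libraries, as WT RT held 132 and 127 CPM of Ccl6 and 68.6 and 78.03 CPM of Ccl9. Without mice 1781 and 1786 both were called (adjusted p = 0.0256 for Ccl6 and 0.0388 for Ccl9), but neither was without mouse 1786 alone (0.127 and 0.168), without any 1 of the WT cold libraries, or under the titles' grouping, and Ccl6 was also not called without either WT RT library. Angpt1, a vessel-stabilising growth factor, was the gene called of 17 vessel growth factors (5.88%), with 36.5 and 28.9 CPM against 13.8, 14.1 and 19.3 CPM (log2 1.06, SE 0.17, adjusted p = 0.0285). Id1, a target of BMP signalling, was the gene called of 21 of the TGF-beta and BMP list (4.76%), lower at 20.9 and 27.9 against 50.4, 45.9 and 51.4 CPM (log2 -1.01, SE 0.18, adjusted p = 0.0363). Alpl, the alkaline phosphatase that hydrolyses phosphocreatine in the creatine cycle of thermogenic fat, was the gene called of 7 (14.3%), lower at 33.9 and 43.6 against 57.8, 64.9 and 59.1 CPM (log2 -0.65, SE 0.12, adjusted p = 0.0407). Stc2, a secreted glycoprotein, was at 30.2 and 58.3 CPM against 205, 203 and 214 CPM (log2 -2.23, SE 0.29, adjusted p = 0.0224). For each of these 4 genes the libraries labelled KO RT did not overlap WT cold.

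Most lists of markers of other cells had lower values in KO RT, and skeletal muscle markers had values in both directions. The 16 macrophage markers all had negative differences, with a median of -0.70 and 0 called by edgeR (3 lower by DESeq2, and 5 lower at an unadjusted p under 0.05), and summed to 731 and 998 CPM in KO RT against 1124 to 1437 CPM in WT cold. All 12 fibroblast and progenitor markers were negative, with a median of -0.38. Fbln1, a matrix protein, was the gene called (8.33%, beside 1.77% of all genes), with a log2 difference of -0.99 (SE 0.18, adjusted p = 0.0388). The 12 markers summed to 9560 and 10772 CPM against 12109 to 14046 CPM. Markers of B cells (median -1.57), neutrophils (-1.09), erythroid cells (-1.01) and T and NK cells (-0.80) had 0 called by edgeR, with 2, 2, 0 and 2 lower by DESeq2 and 2, 3, 0 and 3 lower at an unadjusted p under 0.05. All 9 genes of MHC class II presentation were negative, with a median of -0.32 and 1 at an unadjusted p under 0.05. The 10 B cell markers summed to 17.7 and 38.6 CPM against 50.8 to 102 CPM, and those of erythroid cells to 424 and 703 against 660 to 1610 CPM. Of 12 skeletal muscle markers, 7 were positive and 5 negative, with a median of 0.80 and 0 called by edgeR (3 higher by DESeq2; 6 higher and 1 lower at an unadjusted p under 0.05), and they summed to 54.2 and 43.4 CPM in KO RT against 63.9 to 95.6 CPM in WT cold. The white adipocyte markers had a median of -0.04. The part these cells take in the results for Ccl6, Ccl9, Fbln1, Cpt1b, Pfkm, the MHC class II list and the interferon-inducible genes was not tested. For the macrophage list the median shrank to -0.12 under the titles' grouping and to -0.32 without both mice.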

How the data were processed

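RNA was sequenced on BGISEQ from 9 mice. The authors deposited 1 table of raw counts per gene, made with STAR and featureCounts on mm10 per the submitters' processing notes; versions, the gene annotation and use of strand were not stated in the sources read here, and thus reads of overlapping genes cannot be told apart. Its 9 RPKM columns were not used. Counts were analysed in R 4.3.3 with edgeR 4.0.16 (filterByExpr, TMM, robust quasi-likelihood fit) in 1 fit of 4 groups over 9 libraries, so that small groups share an estimate of spread; p-values measure the spread between single mice. Levels are TMM-normalised CPM. Totals, given in the report, limit precision for genes near 0. Genes were called at a Benjamini-Hochberg adjusted p under 0.05 and a fold above 1.5. Positions come from GENCODE mm10 annotation, matched by symbol for 16337 of the 16745 genes tested, and promoters from RefSeq (GRCm38.p6), with matching in Python 3.11.15.

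The members and the 45 lists (31 gene and 14 marker lists) were chosen with earlier results of these data known. Genes were named by a rule: up to 15 called genes of lowest p per direction; per list up to 4 members of lowest p, called ones first, or 2 of the highest CPM where 0 were called; up to 6 per class in the split against KO cold and WT RT; and Tet1, Tet2 and Tet3. Tet2 and Tet3 had log2 differences of 0.31 (SE 0.18) and 0.20 (SE 0.17) between KO RT and WT cold. Any other gene named was chosen after its values were seen. Some genes that the rule names are not reported here. Alternatives were DESeq2 1.42.0, the likelihood ratio test, RLE and upper quartile factors, no filter, no fold threshold, fitting 2 groups alone, the titles' grouping, leaving out mice 1781 and 1786, and leaving out each library.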

Additional observations from a re-analysis of the deposited data

How the results depend on the processing

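Among the alternatives run, DESeq2 called 590 genes higher and 496 lower in KO RT than in WT cold, the likelihood ratio test 542 and 459, a fit of the 2 groups alone 89 and 75, the titles' grouping 9 and 1, and the libraries without mice 1781 and 1786 gave 29 and 5. In the same order, KO cold against WT RT gave 748, 716, 19, 40 and 281 called genes, WT cold against WT RT 483, 451, 104, 0 and 113, genes called in both with opposite signs numbered 232, 205, 4, 0 and 9, and for the same sign, except without both mice (10), they were 34, 36, 7 and 6. KO RT against WT RT gave 126 by DESeq2, 109 by the likelihood ratio test and 0 in the fit of 2 groups. RLE and upper quartile factors, no filter and no fold threshold kept each of these counts within 1.5 times. Leaving out each library gave 9 to 188 higher and 1 to 160 lower genes for KO RT against WT cold, 4 to 209 for KO cold against WT RT, 2 to 77 for WT cold against WT RT, 0 to 6 for KO RT against WT RT, 3 to 49 with opposite and 1 to 12 with the same sign; where 1 mouse was left in a group, it was assumed to vary like the others. The cause of these changes was not tested. All 296 genes called kept their direction under each alternative. Of 100 called genes looked at, 6 (Adrb3, Coq8a, Cox7a1, Gbp6, Myt1l and Spdef) kept the call whichever library was left out. Of 107 genes looked at that were not called, 31 were called under some alternative and 27 changed sign, as did 17 of the 45 list medians. No paired analysis was possible because the groups share no mouse numbers.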

Other observations

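Some genes higher or lower in KO RT than in WT cold are in none of the lists used, and all but Enho and Zfp667 below were chosen after their values were seen. Thrb, a thyroid hormone receptor, was at 31.8 and 28.9 CPM in KO RT and at 15.6, 16.3 and 17.6 CPM in WT cold (log2 0.88, SE 0.12, edgeR adjusted p = 0.0276). Ptger3, a prostaglandin E2 receptor, was at 86.2 and 72.6 CPM against 23.6, 36.6 and 37.8 CPM (log2 1.28, SE 0.25, adjusted p = 0.0422), and Fgf2, a fibroblast growth factor whose gene overlaps Nudt6, at 6.64 and 3.73 CPM against 1.23, 1.62 and 1.49 CPM (log2 1.84, SE 0.28, adjusted p = 0.0276). In all 3 the libraries labelled KO RT lay above WT cold, as did WT RT. Enho, which encodes the peptide adropin and overlaps Dnaic1, was at 7.13 and 10.9 CPM against 30.1, 24.8 and 29.5 CPM (log2 -1.65, SE 0.23, adjusted p = 0.0276), below all the other libraries.

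F3, tissue factor, which starts blood clotting, was at 75.04 and 78.2 CPM in KO RT and at 241, 181 and 382 CPM in WT cold (log2 -1.81, SE 0.32, edgeR adjusted p = 0.0373). Hif3a, a hypoxia-inducible factor subunit, was at 1.36 and 1.85 CPM against 7.36, 4.81 and 5.93 CPM (log2 -1.91, SE 0.29, adjusted p = 0.0276). For F3 and Hif3a the libraries labelled KO cold were also high, at 362 and 385 CPM for F3 and at 6.00 and 6.02 CPM for Hif3a, so RT and cold libraries did not overlap. Hsd11b2, which inactivates glucocorticoids, was at 1.22 and 1.38 CPM against 4.804, 3.99 and 4.36 CPM (log2 -1.75, SE 0.28, adjusted p = 0.0285). Tgm2, a protein crosslinking enzyme that overlaps Rprd1b, was lowest in KO RT, at 470 and 955 CPM against 2304, 2713 and 2447 CPM in WT cold and 1941 and 2970 CPM in WT RT (log2 -1.80, SE 0.34, adjusted p = 0.0390). Zfp667, a zinc finger gene, was at 22.2 and 22.5 CPM in KO RT and between 9.22 and 15.1 CPM in the other 7 libraries (log2 1.17, SE 0.12, adjusted p = 0.0113).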
